A study of Bos taurus with 42 samples.

Results

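The miR-148 and miR-152 family is a group of related microRNAs (miRNAs), here followed from bovine oocytes through embryos to cultured cells. Embryos were made either with sperm, by in vitro fertilisation (IVF), or from a somatic nucleus, by nuclear transfer (NT). Its rows were found by name: the first sequence hit of the row had to be miR-148a, miR-148b or miR-152, from either arm of the hairpin, with no mismatch marked. Of 12345 rows of small RNA sequences in the deposited table, 3 met this rule, among 379 miRNA rows without a mismatch. They were miR-148a-3p, miR-152-3p and a row named miR-148a with no arm. No row of miR-148b without a mismatch was among the rows used here. In the annotation of the ARS-UCD2.0 assembly, MIR148A overlaps MIR148D, MIR148B lies in COPZ1 and MIR152 overlaps both COPZ2 and MIR148C. The sequences of the rows are not printed, because none of the sources used here holds them.

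A miRNA is a short RNA that guides an Argonaute protein to messenger RNAs that pair with its seed, the bases near its 5′ end, and it lowers their translation or stability. Mature miR-148a, miR-148b and miR-152 from the 3′ arm share a seed, so they can bind the same sites. The family is known for targeting DNMT1, the methyltransferase that copies DNA methylation to the new strand after replication. In early mammalian embryos DNA methylation is largely removed and then set again, and nuclear transfer embryos are known for incomplete removal. DNMT1 itself was not measured in these small RNA libraries.

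The RNA fraction below 200 nt was read with an Ion Proton in 42 libraries of 12 groups. In vitro matured oocytes had 3 libraries, and primary fibroblasts, grown from an ear biopsy of a Brahma Spanish cross bull, had 3. IVF embryos, made with frozen semen from a Holstein bull, had 4 libraries at the 2-cell stage, 3 at the 8-cell stage, 4 of morulae and 3 of blastocysts. NT embryos, each made by fusing 1 of these fibroblasts with an oocyte whose own nucleus had been removed, had 4, 4, 3 and 4 libraries at the same stages. Embryos of both kinds were taken on days 2, 3, 6 and 8 in pools of 20, after culture on bovine cumulus cells with serum. Cells derived from blastocysts had 4 IVF and 3 NT libraries, and their culture is not described in the labels. The NT donors thus came from 1 bull and the semen from another, so the method of making the embryo and the sire cannot be told apart. The labels do not say whether libraries of a group came from separate collections, so p-values measure only the spread between these libraries.

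Depth and makeup differed between the libraries. Listed reads, recovered from the deposited values, ranged from 25119 to 3081186 (median 608571.5), and miRNA reads from 796 to 2482312. IVF morula library 3 was the shallowest, with 796 miRNA reads. IVF morula library 1 had 0.143% of its reads in piRNA clusters, against 80.5% and 74.4% in IVF morula libraries 2 and 4. Fibroblast library 1 had 23823 miRNA reads, 3.42% of its listed reads. MiRNAs made up 2.00 to 3.25% of listed reads in oocytes, 9.88 to 20.3% in blastocysts and 45.1 to 81.8% in blastocyst-derived cells, so the choice of denominator matters for every comparison that crosses these groups. Of 6 epithelial and trophectoderm marker miRNAs, 3 had rows, and these summed to 0 to 14 miRNA CPM (reads per 1000000 miRNA reads of the library) in fibroblasts and 8307 to 18969 in NT blastocyst-derived cells. IVF blastocyst-derived cell library 2 had 26 miRNA CPM, against 10861 to 18865 in the other 3 libraries of its group. Markers of fibroblasts and other mesenchymal cells summed to 12845 to 100516 miRNA CPM in fibroblasts, with 5 or 6 of 6 found. They summed to 27588 to 101301 in blastocyst-derived cells, with all 6 found in each library, and to 2499 to 4496 in blastocysts. A change in the share of cells of a type and a change in RNA per cell cannot be told apart in such bulk libraries.

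Levels below are normalised reads: recovered reads divided by the size factor the authors used. These factors ranged from 0.0787 to 13.4 and did not follow depth alone. Oocyte library 1 had 408953 listed reads and a factor of 0.199, and NT blastocyst library 1 had 316874 and 1.20. Differences in level between stages thus rest partly on these factors. A small RNA read spans a mature miRNA, so no length correction was applied, and ligation preferences of single sequences remain. The main member, miR-148a-3p, had 498, 622 and 436 normalised reads in the 3 oocyte libraries. It had 590, 514, 230 and 898 in IVF 2-cell libraries, and 658, 675, 311 and 634 in NT 2-cell libraries. At the 8-cell stage it had 424, 402 and 278 in IVF and 448, 253, 944 and 275 in NT libraries. These groups lay between 230 and 944 normalised reads and overlapped, except that all 3 IVF 8-cell libraries were below the 3 oocyte libraries. IVF morulae had 377, 447, 0 and 374 normalised reads, where the 0 belongs to the shallow library 3 and allows up to 38.1. NT morulae had 368, 200 and 332. IVF blastocysts then had 212, 182 and 139 normalised reads, and NT blastocysts 77.5, 116, 170 and 109. Every blastocyst library of either kind lay below every oocyte library. In blastocyst-derived cells the levels were 115, 70.5, 204 and 434 for IVF and 165, 247 and 338 for NT. Fibroblasts had 0, 101.2 and 76.4, where the 0 belongs to fibroblast library 1 and allows up to 1.75. Counts of recovered reads behind these levels ranged from 0 to 2578 (median 280).

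**Figure D1:**
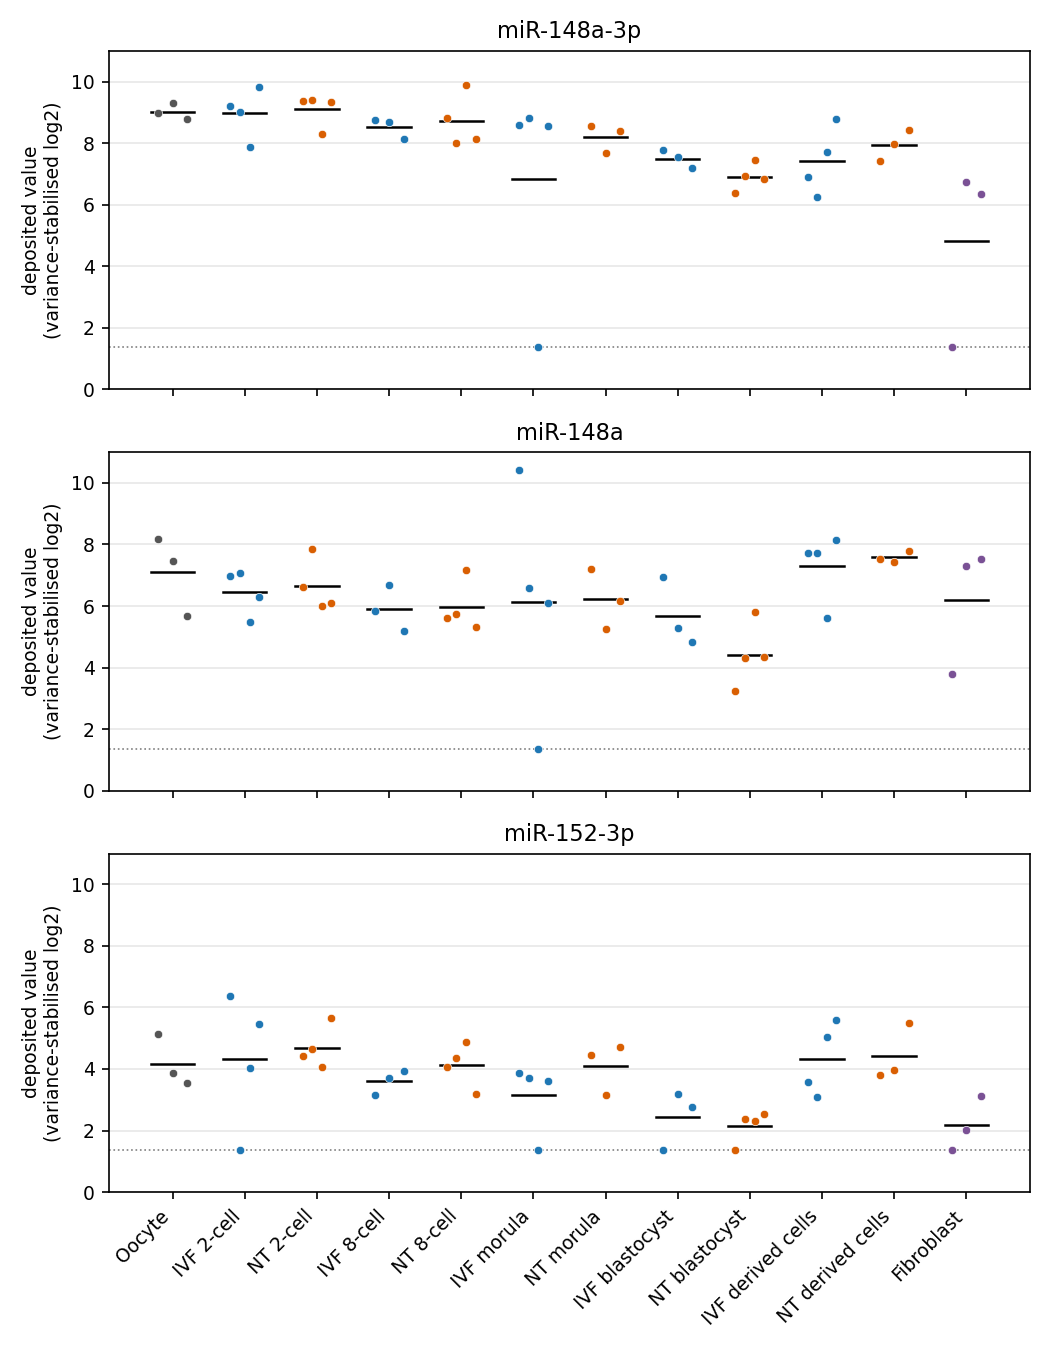
Deposited log2 values of the 3 family members in each library, by group; dots are libraries, black lines are group means and the dotted line is the lowest value of the table, 1.37, which stands for no reads. The miR-148a-3p dots sit high in oocytes and cleavage stages and lower in blastocysts and fibroblasts, while miR-152-3p stays near the dotted line in blastocysts and fibroblasts.

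Ordered by group mean, miR-148a-3p was highest in NT 2-cell embryos (569.7 ± 173 normalised reads, SD, n = 4), IVF 2-cell embryos (557.8 ± 275, n = 4) and oocytes (518.9 ± 94.9, n = 3). NT 8-cell embryos (479.8 ± 321, n = 4), IVF 8-cell embryos (368.0 ± 78.8, n = 3), NT morulae (300.0 ± 88.3, n = 3) and IVF morulae (299.5 ± 203, n = 4) followed. NT blastocyst-derived cells (250.1 ± 86.4, n = 3), IVF blastocyst-derived cells (205.8 ± 162, n = 4), IVF blastocysts (177.6 ± 36.4, n = 3), NT blastocysts (118.2 ± 38.6, n = 4) and fibroblasts (59.2 ± 52.7, n = 3) had the lowest means. Neighbours in this order had overlapping ranges at all 11 steps. The gap between means exceeded the larger SD of the neighbours only from IVF to NT blastocysts (59.4 against 38.6) and from NT blastocysts to fibroblasts (59.0 against 52.7). Without library 3 the IVF morula mean was 399 ± 41.4 (n = 3). Among the 379 miRNA rows, the group mean of miR-148a-3p ranked 23 in oocytes, 13 in NT 2-cell embryos, 41 in IVF blastocysts, 52 in NT blastocysts and 113 in fibroblasts.

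As miRNA CPM, whose denominator leaves out piRNA clusters, the same member was lower in blastocysts than in oocytes and lower again in cultured cells. Oocytes had 7447, 12515 and 11144 miRNA CPM of miR-148a-3p. IVF 2-cell libraries had 4035 to 17034, NT 2-cell libraries 9850 to 17510, IVF 8-cell libraries 8036 to 12993 and NT 8-cell libraries 6708 to 20208. NT morulae had 6782 to 9956. Blastocysts had 4258, 5956 and 3890 in IVF and 2238, 3892, 3414 and 3503 in NT libraries, below all oocyte libraries. Blastocyst-derived cells had 1328, 613, 532 and 1039 in IVF and 801, 1336 and 1060 in NT libraries, below every blastocyst library. Fibroblasts had 0, 848 and 938. IVF morula library 1 had 2237 miRNA CPM, apart from libraries 2 and 4 with 10810 and 11552, and library 3 had none, which allows up to 3769.

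**Figure D2:**
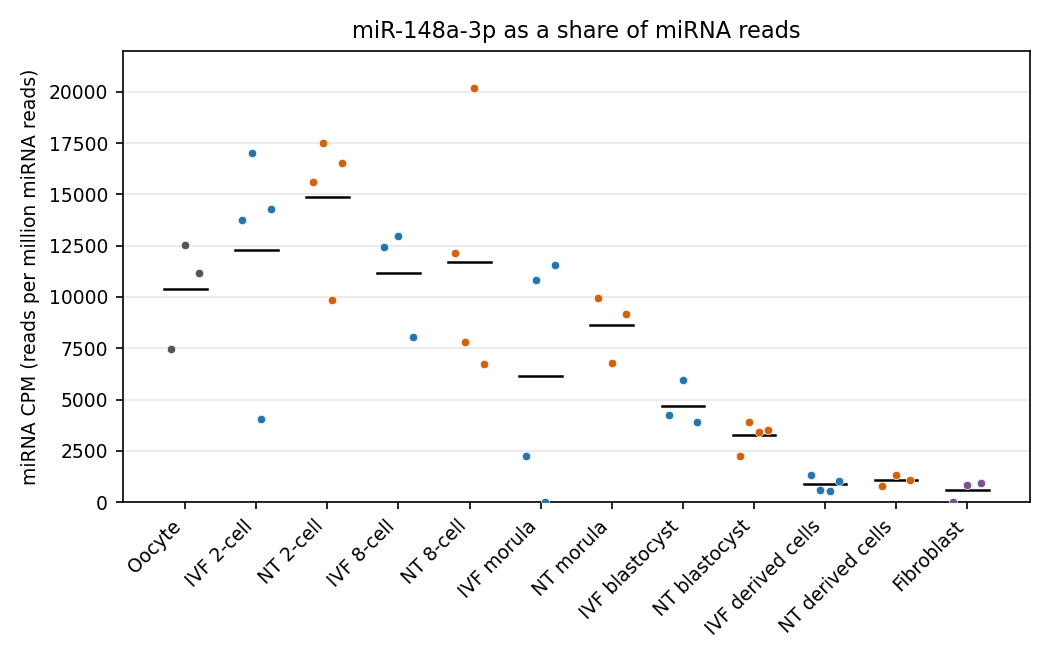
Level of miR-148a-3p in miRNA CPM in each library, by group; dots are libraries and black lines are group means. The mean was 10369 in oocytes, 4701 in IVF blastocysts, 3262 in NT blastocysts, 878 in IVF blastocyst-derived cells and 1066 in NT blastocyst-derived cells.

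The row named miR-148a, whose arm the name does not give, had another profile. It had 282, 172 and 45.7 normalised reads in oocytes and 31.7 to 227 in all 2-cell and 8-cell libraries. IVF morula library 1 alone had 1350 normalised reads of it, against 91.9, 0 and 63.4 in libraries 2, 3 and 4, and NT morulae had 143.7, 33.1 and 67.1. Blastocysts had 118, 34.0 and 23.6 in IVF and 5.00, 15.1, 50.8 and 15.3 in NT libraries. Blastocyst-derived cells had 205.4, 204, 44.4 and 280 in IVF and 181, 168 and 214.3 in NT libraries, so all 3 NT libraries lay above all 4 NT blastocyst libraries. Fibroblasts had 9.32, 151.7 and 178, the low value again in library 1. Its highest group mean, 376 ± 650 normalised reads (SD, n = 4) in IVF morulae, rested on library 1: without it the mean was 51.8 ± 47.1 (n = 3). The next were NT blastocyst-derived cells at 188 ± 23.7 (n = 3), IVF blastocyst-derived cells at 183 ± 99.2 (n = 4) and oocytes at 166 ± 118 (n = 3), and NT blastocysts were lowest at 21.6 ± 20.1 (n = 4). Neighbours in this order had overlapping ranges at all 11 steps.

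The third member, miR-152-3p, comes from a separate gene and was scarce, with a median of 6.50 recovered reads per library. It had 30.2, 9.80 and 7.03 normalised reads in oocytes. IVF 2-cell libraries had 78.3, 0, 11.7 and 39.0 normalised reads and NT 2-cell libraries 16.6, 20.0, 12.04 and 45.5. At the 8-cell stage it had 4.51, 8.31 and 10.6 in IVF and 12.2, 15.6, 24.4 and 4.77 in NT libraries, and morulae ranged from 0 to 21.2. Blastocysts had 0, 4.69 and 2.62 in IVF and 0, 1.32, 1.13 and 1.77 in NT libraries. Blastocyst-derived cells had 7.38, 4.17, 27.9 and 42.9 in IVF and 9.17, 10.97 and 39.7 in NT libraries, and fibroblasts had 0, 0.543 and 4.25. Its group mean ranked between 140 and 289 among the 379 miRNA rows, and again no 2 neighbours in the order of group means had separate ranges. At a few reads per library, differences among blastocysts and fibroblasts were not detectable: the 0 in IVF blastocyst library 2 allows up to 3.35 normalised reads and that in NT blastocyst library 1 up to 2.50.

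NT embryos were compared with IVF embryos at each stage, which asks whether making an embryo from a fibroblast nucleus changed the family. None of the 3 members passed the test at any of the 5 stages (limma on the deposited log2 values of all 12 groups, with Benjamini-Hochberg adjustment over 12039 rows). Over all rows tested, 2.28% passed at the 2-cell stage, 0.00831% at the 8-cell stage, 0% in morulae, 0.00831% in blastocysts and 0% in blastocyst-derived cells, so the count of 0 members is near the background. At an unadjusted p under 0.05 the count was also 0 at all 5 stages, as it was with voom on the recovered reads. For miR-148a-3p the NT minus IVF difference on the log2 scale was 0.12 at the 2-cell stage (SE 1.02, 95% interval -1.91 to 2.15). It was -0.60 in blastocysts (SE 1.10, 95% interval -2.79 to 1.59), so a difference of several fold in either direction was within the error. In morulae the difference was 1.37 (SE 1.10, limma adjusted p = 0.793), and without IVF morula libraries 1 and 3 it was -0.49. For miR-148a in blastocysts it was -1.26 (SE 1.03, limma adjusted p = 1).

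Within each kind of embryo, the early steps showed no called change of a member. From oocytes to 2-cell embryos 0 of 3 passed in IVF and in NT, where 3.03% and 2.43% of all rows passed. From the 2-cell to the 8-cell stage 0 of 3 passed, beside 0.116% of rows in IVF and 0.498% in NT. From 8-cell embryos to morulae in NT 0 of 3 passed, beside 6.35% of rows. The unadjusted count was 0 of 3 in each of these 5 comparisons, and voom called none. Nor did any member pass a test of whether a step differed between NT and IVF, for the step from 2-cell to 8-cell, from 8-cell to blastocyst or from blastocyst to derived cell. Those tests passed 0.0581%, 0% and 0% of rows, and no member had an unadjusted p under 0.05.

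All 3 members had lower group means of normalised reads in blastocysts than in oocytes, and in NT blastocysts the difference passed the test for 2 of them, as it did with voom. In NT blastocysts miR-148a fell by 2.67 on the log2 scale (SE 1.03, limma adjusted p = 0.0312) and miR-152-3p fell by 2.03 (SE 0.79, limma adjusted p = 0.0329). A count of 3 reads stands for 10.5 to 15.1 normalised reads in oocyte libraries and 0.988 to 2.50 in NT blastocyst libraries. The levels of miR-152-3p were 7.03 to 30.2 and 0 to 1.77 normalised reads. Its fall on this scale thus rests on the size factors and few reads in both groups. Voom was run on the same recovered reads. For miR-148a-3p, whose libraries did not overlap between these groups, the difference was -2.12 (SE 1.10, limma adjusted p = 0.123). Over all rows, 38.5% were called lower in this comparison, and 16.9% of the 373 miRNA rows without a mismatch that were tested. The oocyte libraries hold 88.1 to 91.5% of their listed reads in piRNA clusters, and the part of this in the members' change was not tested. Both calls were lost without oocyte library 1, oocyte library 3 or NT blastocyst library 1, and 1 of 2 without NT blastocyst library 2 or 4. With IVF morula libraries 1 and 3 and fibroblast library 1 left out after seeing the data, all 3 members were called. This held on the deposited scale and on log2 miRNA CPM. With all libraries, as a share of miRNA reads the differences were -2.48 for miR-148a and -2.59 for miR-152-3p. Neither passed (limma adjusted p = 0.112 and 0.0740). Neither passed after centring on miRNA rows, at -1.60 and -0.96 (limma adjusted p = 0.408 and 0.569). On log2 listed CPM, the reads per 1000000 listed reads of the library, the direction turned for miR-148a-3p (0.98) and miR-148a (0.10), miR-152-3p was at -0.53, and none passed. The median of the tested miRNA rows was at 1.61 on that scale. Sums of both marker sets were also lower in blastocysts than in oocytes. Mesenchymal markers summed to 12336 to 18230 miRNA CPM in oocytes and 2499 to 4496 in blastocysts. Epithelial markers summed to 15721 to 24445 and 3032 to 6305. Of the 6 mesenchymal markers, however, 3 to 5 were found in oocyte libraries and 5 or 6 in blastocyst libraries. The miR-10b-5p row of that set had a mean of 453 normalised reads in oocytes and 3.12 in fibroblasts. The mesenchymal sum in oocytes is thus no measure of mesenchymal cells. The epithelial sum in oocytes, of miR-200c, miR-141 and miR-205, reached above the 8307 to 18969 of NT blastocyst-derived cells. It is likewise not taken as a measure of epithelial cells. The part of these markers in the members' differences was not tested.

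In IVF blastocysts 0 of 3 members passed against oocytes, where 35.4% of rows passed, with 1 member at an unadjusted p under 0.05 and 1 called by voom. The differences were -1.52 for miR-148a-3p (SE 1.18, limma adjusted p = 0.335), -1.41 for miR-148a (SE 1.11, adjusted p = 0.343) and -1.74 for miR-152-3p (SE 0.85, adjusted p = 0.108). Without IVF morula libraries 1 and 3 and fibroblast library 1, which share the estimate of the spread, the miR-148a-3p difference passed (limma adjusted p = 0.0349). On log2 listed CPM the direction turned, to 1.19 for miR-148a-3p and 1.20 for miR-148a, neither called (limma adjusted p = 0.595 and 0.581), where the median miRNA row was at 1.62. Comparisons of IVF and of NT blastocysts with oocytes share the oocyte libraries. Against the 8-cell stage, IVF blastocysts had 0 of 3 members called, beside 17.6% of rows, with a miR-148a-3p difference of -1.03 (SE 1.18, limma adjusted p = 0.607), no unadjusted p under 0.05 and no call by voom. On log2 listed CPM that difference turned to 0.71 (limma adjusted p = 0.785), and in a fit of only these groups it passed (adjusted p = 0.0260). Against morulae, NT blastocysts had 0 of 3 called, beside 1.38% of rows, with 1 at an unadjusted p under 0.05 and 1 called by voom. The differences there were -1.31 for miR-148a-3p, -1.79 for miR-148a and -1.96 for miR-152-3p (limma adjusted p = 0.637, 0.355 and 0.129). All 3 were called lower in a fit of only these groups, while on log2 listed CPM none was called and miR-148a-3p was at 0.089.

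**Figure D3:**
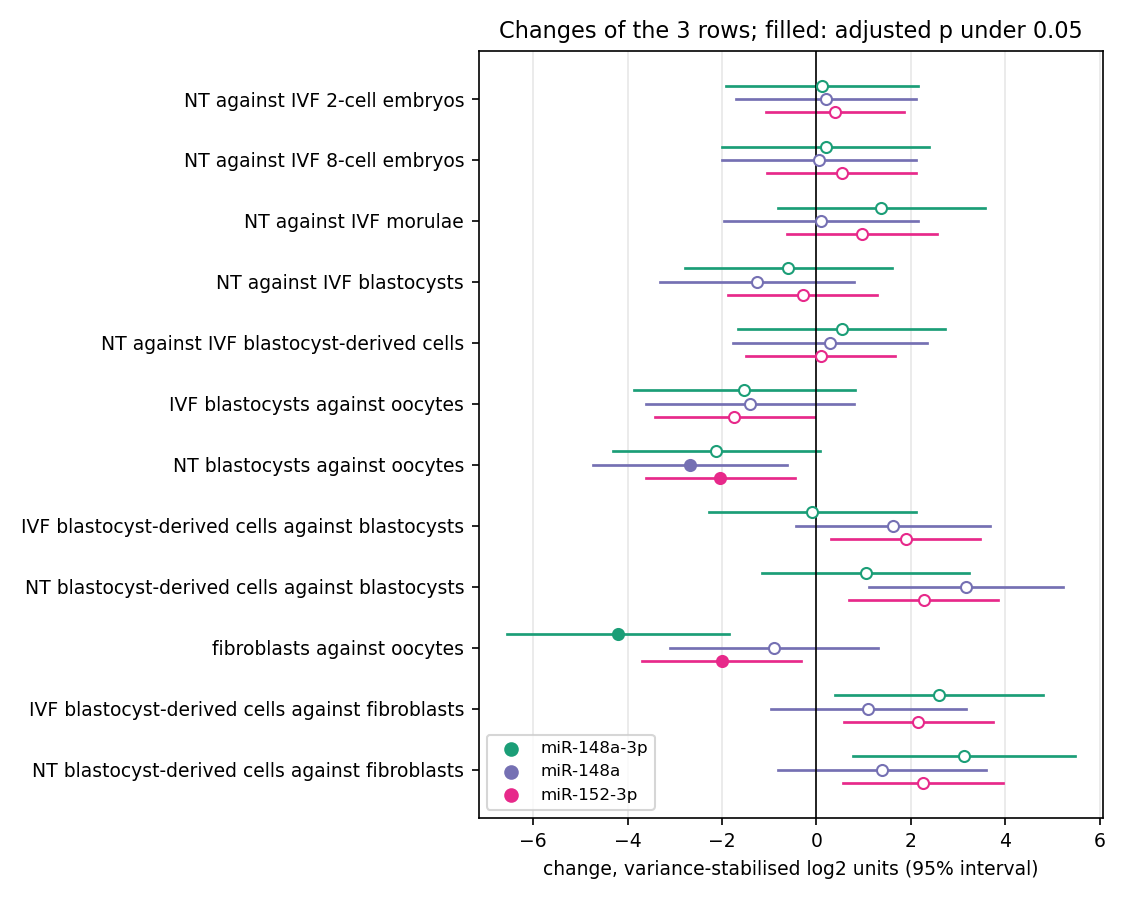
Log2 change of each member in 12 comparisons, with 95% intervals from limma on the deposited scale; filled points have an adjusted p under 0.05. The filled points are miR-148a and miR-152-3p in NT blastocysts against oocytes, and miR-148a-3p and miR-152-3p in fibroblasts against oocytes.

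From blastocysts to the cells derived from them, the direction of miR-148a-3p depended on the denominator. On the deposited scale it was -0.09 in IVF (SE 1.10, limma adjusted p = 1) and 1.04 in NT (SE 1.10, adjusted p = 1). The median of all 373 tested miRNA rows was at 0.94 in IVF and 1.26 in NT on this scale, so the member was below the typical miRNA in both. On log2 miRNA CPM it was -2.47 in IVF (limma adjusted p = 0.148) and -1.60 in NT (adjusted p = 0.408), where the median miRNA row was at -0.48 and -0.34. On that scale, without the IVF morula libraries 1 and 3 and fibroblast library 1, the same differences passed, with a limma adjusted p of 0.0051 in NT. After centring on the 36 miRNA rows found in all libraries, miR-148a-3p fell by 3.58 in IVF (limma adjusted p = 0.0021) and by 3.03 in NT (adjusted p = 0.0091). On that scale the median of the tested miRNA rows was at -2.56 in IVF and -2.81 in NT. Centring shifts all rows of a library alike, so the gap to the median miRNA row was fixed by the deposited scale and adds no support. On the deposited scale and on log2 miRNA CPM, miR-148a-3p was below the median miRNA row, further in IVF than in NT. Both scales rest on the same reads. Of the 3 scales, with all libraries in the fit, only the centred one gave a call. In a fit of only the groups compared, on the deposited scale, the NT difference of 1.04 passed (limma adjusted p = 0.0377).

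The other members had higher deposited values in derived cells. For miR-148a the difference was 1.61 in IVF (SE 1.03, limma adjusted p = 0.801) and 3.16 in NT (SE 1.03, adjusted p = 0.0856). For miR-152-3p it was 1.88 in IVF (SE 0.79, limma adjusted p = 0.227) and 2.27 in NT (SE 0.79, adjusted p = 0.130). So 0 of 3 members passed in either, beside 5.17% of all rows and 22.8% of the miRNA rows in IVF, and 2.87% and 25.7% in NT. At an unadjusted p under 0.05 there was 1 member in IVF and there were 2 in NT, the counts voom called too. After centring on miRNA rows both members changed sign in both kinds of embryo: miR-148a to -1.88 and -0.91, and miR-152-3p to -1.61 and -1.80. Each was above the median miRNA row, as on the deposited scale, because centring shifts all rows of a library alike.

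Fibroblasts, the donor cells of the NT embryos, had less miR-148a-3p than oocytes. It fell by 4.20 on the log2 scale (SE 1.18, limma adjusted p = 0.00221), and miR-152-3p fell by 2.01 (SE 0.85, adjusted p = 0.0486), while miR-148a was at -0.89 (SE 1.11, adjusted p = 0.599). In this comparison 40.4% of all rows and 19.0% of miRNA rows were called lower. Fibroblast library 1, which had no reads of miR-148a-3p, carried much of the size: without it the difference was -2.48 and did not pass (limma adjusted p = 0.114), and no member was called. With IVF morula libraries 1 and 3, which share the estimate of the spread, left out as well, 1 member was called. The other 2 fibroblast libraries, at 101.2 and 76.4 normalised reads, still lay below the lowest oocyte library at 436. On log2 miRNA CPM the miR-148a-3p difference was -5.31 (limma adjusted p = 0.00103). On log2 listed CPM no member was called: miR-148a-3p was at -1.98 (limma adjusted p = 0.282), miR-152-3p at -0.61, and miR-148a turned to 1.77. The sign of miR-148a also turned without fibroblast library 1, to 0.31. Leaving out 1 library at a time, the limma adjusted p of miR-152-3p ranged from 0.0333 to 0.202. Of the reads of the 3 rows, miR-152-3p took 1.64% of 3477 in fibroblast library 4 and 3.73% of 161 in oocyte library 1. More reads of it were thus recovered in that fibroblast library, and its fall rests on the size factors and few oocyte reads. After centring on miRNA rows, with no filter or with no intensity trend, 1 member was called. Against fibroblasts, miR-148a-3p in blastocyst-derived cells differed by 2.59 in IVF (SE 1.10, limma adjusted p = 1) and by 3.12 in NT (SE 1.18, adjusted p = 0.548). No member passed in either, beside 0.307% and 0.673% of rows. There were 2 members at an unadjusted p under 0.05 in each, and voom called none.

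The makeup of the family also differed between embryos and cultured cells. In oocytes miR-148a-3p held 76.0% ± 13.9 of the reads of the 3 rows (SD, n = 3), and in 2-cell embryos 81.4% ± 5.8 in both IVF and NT (n = 4 each). The share was 76.9% ± 11.1 for IVF blastocysts (n = 3) and 86.1% ± 7.1 for NT blastocysts (n = 4). In NT blastocyst-derived cells it held 46.5, 57.1 and 58.0%, below all 4 NT blastocyst libraries, which ranged from 76.6 to 93.9%. In IVF blastocyst-derived cells it held 25.3 to 73.8%, a range that overlapped with the 64.2 to 84.2% of IVF blastocysts. In fibroblasts it held 0, 39.9 and 29.5%, and the row with no arm in its name held the rest but for at most 1.6%. IVF morula library 1 had 21.7%, nearer to the cultured cells than to IVF morula libraries 2 and 4 at 81.7 and 84.0%. Summed over the 3 rows, the family held 13588 ± 2236 miRNA CPM in oocytes (n = 3), 6160 ± 1364 for IVF blastocysts (n = 3) and 3833 ± 986 for NT blastocysts (n = 4). It held 2185 ± 1279 in IVF blastocyst-derived cells (n = 4), 1962 ± 304 in NT blastocyst-derived cells (n = 3) and 1992 ± 1260 in fibroblasts (n = 3). These ratios are given as descriptions, with no test.

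**Figure D4:**
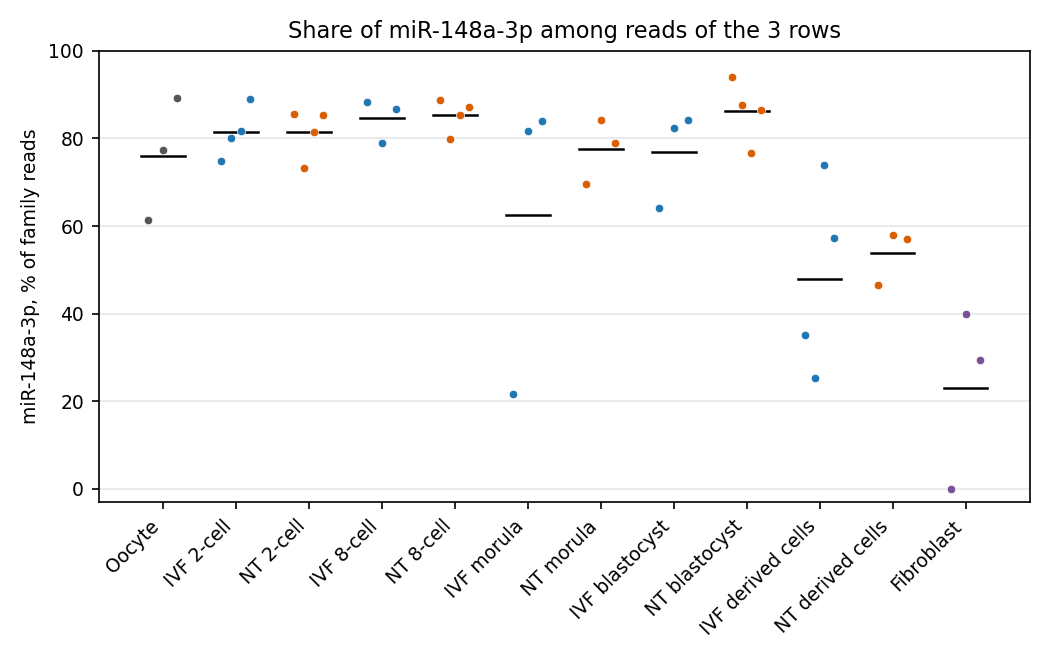
Share of the reads of the 3 family rows taken by miR-148a-3p in each library, in percent, by group; dots are libraries and black lines are group means. In blastocysts the share is 64.2 to 93.9%, and in cultured fibroblasts and blastocyst-derived cells 0 to 73.8%.

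The only row of miR-148b was one marked with a mismatch to the reference, 10C->G, which the rule leaves out. It had another profile than miR-148a-3p. Which family gene its reads come from, miR-152 included, was not tested. Below, miR-148b is thus only the name of this row, and a change of miR-148b itself is not shown. In blastocysts it had 7.80, 3.52 and 10.9 normalised reads in IVF and 0, 1.98, 6.77 and 2.36 in NT libraries. In blastocyst-derived cells it had 97.6, 176, 417 and 746 in IVF and 318, 231 and 836 in NT libraries, with no overlap. The mismatched miR-148b-3p row rose by 4.59 on the log2 scale in IVF (SE 0.80, limma adjusted p = 5.87e-05) and by 6.11 in NT (SE 0.80, adjusted p = 1.58e-07). On log2 miRNA CPM it rose by 2.79 and 4.61 (limma adjusted p = 0.0234 and 0.00014). After centring on the miRNA rows found in all libraries the differences were 1.10 and 2.03 and did not pass (limma adjusted p = 0.330 and 0.0704). Fibroblasts had 53.6, 41.0 and 185 normalised reads of it, above every oocyte library at 35.2, 34.3 and 10.5. It held 2158 ± 1762 miRNA CPM in fibroblasts (n = 3), 1382 ± 335 in IVF blastocyst-derived cells (n = 4) and 1806 ± 724 in NT blastocyst-derived cells (n = 3), against 192 ± 99.7 in IVF and 69.4 ± 55.5 in NT blastocysts. Adding the 3 mismatched family rows raised the family sum to 4150 miRNA CPM in fibroblasts, 3571 in derived cells of IVF and 3772 in those of NT embryos. The mismatched rows of miR-148a-3p and miR-152-3p reached at most 13.4 normalised reads in any library.

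**Figure D5:**
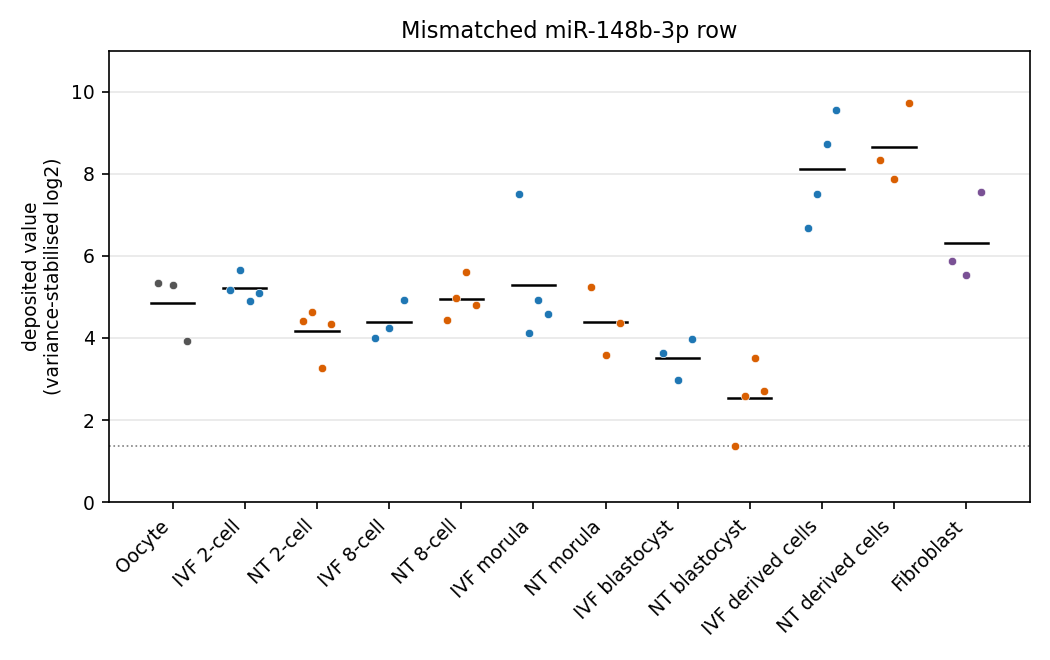
Deposited log2 value of the mismatched miR-148b-3p row (10C->G), whose gene of origin was not tested, in each library, by group; dots are libraries, black lines are group means and the dotted line is the lowest value of the table. The 7 blastocyst-derived cell libraries lie at 97.6 to 836 normalised reads, above the 7 blastocyst libraries at 0 to 10.9.

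Other miRNAs with known links to DNA methyltransferases or to TET enzymes, which start the removal of DNA methylation, were set beside the family as a list of 14 miRNAs, of which 10 had 19 rows without a mismatch, all tested. At no stage did a row of this list pass in NT against IVF. Against blastocysts, 9 of 19 rows rose in IVF blastocyst-derived cells and 6 of 19 in NT, and none fell, with a median change of 1.99 and 2.13 beside 0.94 and 1.26 for all tested miRNA rows. Of all those miRNA rows, 20.4% and 22.5% were called higher. Those counts depended on the denominator: as miRNA CPM 4 rose in each and 0 and 1 fell, and after centring on miRNA rows 2 rose and 8 fell in each, with list medians of -1.50 and -1.94. The miR-29a-3p row, of the miR-29 family that targets DNMT3A and DNMT3B, had a mean of 135 normalised reads in IVF and 83.0 in NT blastocysts, and 7035 and 3752 in the derived cells. It rose by 5.47 in IVF (limma adjusted p = 0.0004) and 5.20 in NT (adjusted p = 0.0010) on the deposited log2 scale. The miR-22-3p row, of a miRNA known to target TET2, rose by 4.02 in IVF (limma adjusted p = 0.0030), from a mean of 94.5 to 1842 normalised reads. In NT its mean was 125 in blastocysts and 865 in derived cells, a difference of 2.75 that did not pass (limma adjusted p = 0.122). The row of highest mean of miR-26a, also known to target TET enzymes, had a mean of 791 normalised reads in both kinds of blastocyst and 2443 and 2428 in the derived cells. These miR-26a means are given as levels only, without a test result, and the median tested miRNA row also rose on the deposited scale. In fibroblasts against oocytes 3 of 19 rows rose (miR-143-3p, miR-22-3p, miR-22-5p) and 3 fell (miR-26a, miR-342-3p, miR-342), beside 13.1% of all tested miRNA rows called higher and 19.0% lower, which are near the list's shares. On log2 listed CPM 6 rose and none fell, and with voom 3 rose and 7 fell. In NT blastocysts against oocytes 1 row was called higher, miR-101-1-3p, and 0 lower, beside 9.92% of miRNA rows higher and 16.9% lower. On log2 listed CPM 6 were called higher and 0 lower, with voom 0 higher and 4 lower, and after centring none either way.

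The miRNA rows whose 12 group means ran most like those of miR-148a-3p were miR-15a, miR-16a-5p and miR-10b-5p, out of 370 candidates outside the family. Pearson's r over the 12 group means of the deposited log2 values was 0.984, 0.961 and 0.959, and Spearman's rho was 0.965, 0.895 and 0.958. By rho these rows ranked 1, 8 and 2, and by r on log2 miRNA CPM 2, 8 and 1. These points share libraries and depth, so the values are descriptions. Mean levels of miR-15a were 929 ± 210 normalised reads in oocytes (n = 3), 220 ± 14.5 for IVF blastocysts (n = 3), 119 ± 58.9 for NT blastocysts (n = 4) and 50.9 ± 46.0 in fibroblasts (n = 3). For miR-152-3p the order depended on the measure. By r on the deposited scale miR-15a-5p, miR-195-5p and miR-27b-3p came first (0.931, 0.898 and 0.889), but by rho they ranked 30, 13 and 7, behind miR-30d-5p (0.930), and by r on log2 miRNA CPM 13, 4 and 27, behind miR-106-5p (0.912). Within the family, miR-148a-3p had an r of 0.777 with miR-152-3p and of 0.272 with the miR-148a row over the same 12 means, and the mismatched miR-148b-3p row had an r of 0.811 with the miR-148a row and -0.169 with miR-148a-3p.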

How the data were processed

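Small RNA libraries of oocytes, embryos and cultured cells were trimmed with Trim Galore and transformed with DESeq2 by the authors, and the builds named are bosTau8 and UMD3.1, per the submitters' processing notes. Versions of these tools are not given there. The authors deposited log2 values that had been normalised by size factors and variance-stabilised. Inverting the transform gave whole reads for 100% of 188126 values above the lowest (tolerance 0.01 reads), with each library's first step above the lowest taken as 2 reads, so absolute levels rest on that choice. Reads were divided by the size factors for normalised reads, or by all miRNA reads of the library.

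The test was limma 3.58.1 (R 4.3.3) on 12 group means with an intensity trend (30 residual degrees of freedom), over 12039 rows at least 1 above the lowest value in 3 libraries, with Benjamini-Hochberg adjustment at 0.05, for 22 comparisons. It was tested on simulated data for 1 comparison, with normal errors and changes only in rows of higher mean. That simulation does not cover rows near the lowest value, such as miR-152-3p in blastocysts. Alternatives were no filter and a stricter filter, centring on miRNA rows, log2 of counts per 1000000 listed reads (plus 2) or miRNA reads (plus 20), voom, only the groups compared, no trend, a replicate block and leaving out libraries. Libraries that stood apart were left out after seeing the data. Limits from 0 reads are 3 reads and cover counting error only, as reads carry no molecular identifiers. Tables were handled in Python 3.11.15. All member rows are described; beside them, the 3 most correlated miRNA rows and the DNA methylation list are named. The members and lists were chosen with earlier results of these data known.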

Additional observations from a re-analysis of the deposited data

Results flagged for a closer look

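Among 18 sets of 1 member in 1 group of 4 libraries or more that were tested for a library far from the others, 3 stood out, and chance alone marks about 1 in 20 such sets. Both miR-148a-3p and miR-152-3p had the lowest value of the table, 1.37 on the log2 scale, in IVF morula replicate 3. That library holds 796 miRNA reads, where 0 reads allow up to 3769 reads per 1000000 miRNA reads, or 38.1 normalised reads. The other 3 IVF morula libraries had 7.61 to 10.05 normalised reads of miR-152-3p, below that limit, so a lower level is not shown. For miR-148a-3p they had 374 to 447, above the limit, but as miRNA CPM replicate 1, at 2237, lay below the limit of 3769. In NT 2-cell embryos, miR-148a-3p in replicate 3 had a log2 value of 8.31, or 311 normalised reads, against 634 to 675 in the other 3 libraries. IVF 2-cell replicate 3 had 230.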

How the results depend on the processing

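Depth limits miR-152-3p, which had a median of 6.50 recovered reads per library. Called members, counted over 22 comparisons, changed as follows. In NT blastocysts against oocytes (2 lower) there were 0 after centring on miRNA rows and on the CPM scales of listed and of miRNA reads, and 1 with the replicate block. There were 3 without IVF morula libraries 1 and 3 and fibroblast library 1, on the deposited scale and as miRNA CPM. In fibroblasts against oocytes (2 lower) there was 1 after centring, with no filter and with no trend, and 0 on listed CPM. There was also 1 without IVF morula libraries 1 and 3 and fibroblast library 1 (on both scales). Using only the groups compared, the count rose to 3 in 1 of these 2 comparisons. In IVF blastocyst-derived cells against blastocysts (0) there was 1 lower after centring and as miRNA CPM without those 3 libraries, and 1 higher as listed CPM and with voom. In NT (0) there was 1 lower under the same 2 settings, 1 higher as listed CPM, 2 higher with voom and without the 3 libraries, and 3 higher using only the groups compared. In NT blastocysts against morulae (0) there were 2 lower as miRNA CPM without the 3 libraries, 3 using only the groups compared, and 1 with voom and without the 3 libraries. In IVF blastocysts against oocytes (0) there were 2 using only the groups compared, and 1 with voom and without the 3 libraries. In IVF blastocysts against 8-cell embryos (0) there was 1 using only the groups compared. The stricter filter moved none.

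Signs turned as follows. After centring, miR-148a-3p was at -0.11 in NT against IVF 8-cell embryos and at -3.03 in NT blastocyst-derived cells against blastocysts. In the latter comparison miR-148a was at -1.88 in IVF and -0.91 in NT, and miR-152-3p at -1.61 and -1.80. As listed CPM, miR-148a-3p was at -0.14 and -0.15 in NT against IVF at the 2-cell and 8-cell stages. It was at 0.71 in IVF blastocysts against 8-cell embryos, 0.089 in NT blastocysts against morulae, and 1.19 and 0.98 in IVF and NT blastocysts against oocytes. There miR-148a was at 1.20 and 0.10, and at 1.77 in fibroblasts against oocytes. As miRNA CPM, with and without the 3 libraries, miR-148a-3p was at -0.034 in NT against IVF 8-cell embryos and -1.60 in NT derived cells against blastocysts, and miR-148a at -0.62 in IVF derived cells. Without the 3 libraries on that scale, miR-148a-3p was at -0.39 in NT against IVF morulae and -0.12 in IVF derived cells against fibroblasts. On the deposited scale without them, it was at -0.49 in NT against IVF morulae, and miR-148a was at 0.31 in fibroblasts against oocytes. The cause was not tested.

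Leaving out 1 library at a time gave 0 to 2 called members in NT blastocysts against oocytes and in fibroblasts against oocytes, and 0 in the other 20 comparisons. The sign turned for miR-148a in fibroblasts against oocytes (-1.61 to 0.31) and for miR-148a-3p in IVF derived cells against blastocysts (-0.54 to 0.30) and in NT against IVF 2-cell (-0.25 to 0.40), 8-cell (-0.20 to 0.43) and morula (-0.45 to 2.04) libraries. The mismatched miR-148b-3p row lost its call in NT blastocysts against oocytes without oocyte replicate 1 (-2.07) or 3 (-2.09) or NT blastocyst replicate 1 (-1.92).

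NT and IVF libraries of a stage share replicate numbers, and of 16 same-numbered pairs, 7 correlated over 0.1 in their deviations from the group means (-0.09 to 0.47). The highest values, 0.34 and 0.47, were of blastocyst-derived cell replicates 1 and 4. Pairs with different numbers were not compared, so these values cannot decide whether the numbers pair the libraries. With the replicate block, miR-148a-3p in IVF derived cells against blastocysts was at 0.020.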
